A study of Mus musculus and Rattus norvegicus with 53 samples.

Results

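The 10 genes described here encode secreted modulators of WNT signalling: Wif1, Sfrp1, Sfrp2, Sfrp5, Frzb, Dkk2, Dkk3, Rspo1, Rspo2 and Rspo3, which are 10 of the 24016 genes counted by symbol in each mouse library. They were taken by symbol, and the set was chosen from contrasts between nerve regions measured in these same libraries, so their levels and differences are given as a description, with no test. Schwann cells (SCs) were sorted by their red fluorescence from tdTomato+ mice of both sexes aged 6 to 8 weeks, in which Cre under the myelin protein zero promoter P0A-Cre removes a stop cassette in front of tdTomato at the Rosa26 locus, so any cell that once used this promoter is labelled, and intact and injured nerves carried the same alleles. Cells came from the intact contralateral nerve (iSCs), from the stump distal to a full sciatic nerve transection (dSCs) or from the tissue bridge that forms across the gap (bSCs). In the pooled experiment each library held the nerves of 3 mice, day 6 after transection was used and each region had 4 libraries, numbered by pool 1, 2, 4 and 5 for iSCs and 1, 2, 3 and 5 for dSCs and bSCs. In the single-nerve experiment each of 35 libraries held 1 nerve, with 5 libraries of iSCs, 3 of bSCs on each of days 4, 6, 8 and 10, and 3 of dSCs on each of those days as well as on days 1 and 2.

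WNT ligands act by binding a Frizzled receptor together with an LRP co-receptor, which stabilises β-catenin and turns on target genes. WIF1 and the secreted Frizzled-related proteins (the SFRPs, with Frzb as a member of the family) are known to bind WNTs outside the cell, DKK2 binds the LRP co-receptors, and DKK3 is the divergent member of the DKK family. R-spondins act in the other direction: they bind LGR receptors and the ubiquitin ligases RNF43 and ZNRF3, and so keep Frizzled receptors at the cell surface. In injured nerve, SCs give up the myelinating state and take on a repair state, and both the distal stump and the bridge also hold fibroblasts and macrophages.

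The genes lie on 8 chromosomes of the mouse build NCBIM37 (mm9). Wif1 lies at chr10:120471016-120537706 on the plus strand, Sfrp5 at chr19:42272461-42276742 on the minus strand and Rspo1 at chr4:124663674-124686343 on the plus strand. Dkk3 spans chr7:119259533-119302571 and Frzb spans chr2:80252127-80287782, both on the minus strand. The summed exon length, UTRs included, was between 1900 bases for Sfrp5 and 4372 bases for Sfrp1. Promoters are shown for the members that led the group in dSCs (Wif1) and in iSCs (Sfrp5), and for the R-spondin with 1 count in all pooled bSC libraries (Rspo1). The runs below are the 250 bases before the transcription start from RefSeq on build GRCm38.p6, written 5′ to 3′ on the gene's strand with each CG in capitals.
Wif1 (chr10:121033754-121034003, plus strand): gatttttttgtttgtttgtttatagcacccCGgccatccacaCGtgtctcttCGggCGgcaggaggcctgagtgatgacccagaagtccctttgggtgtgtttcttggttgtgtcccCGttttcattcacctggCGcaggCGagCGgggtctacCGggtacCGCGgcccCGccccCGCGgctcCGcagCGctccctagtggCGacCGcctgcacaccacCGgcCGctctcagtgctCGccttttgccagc
Sfrp5 (chr19:42202253-42202502, minus strand): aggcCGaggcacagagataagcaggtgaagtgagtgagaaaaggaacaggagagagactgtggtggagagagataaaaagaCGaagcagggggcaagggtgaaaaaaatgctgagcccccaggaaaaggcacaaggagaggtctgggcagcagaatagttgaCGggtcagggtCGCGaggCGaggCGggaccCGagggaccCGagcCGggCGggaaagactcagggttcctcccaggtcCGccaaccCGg
Rspo1 (chr4:124986180-124986429, plus strand): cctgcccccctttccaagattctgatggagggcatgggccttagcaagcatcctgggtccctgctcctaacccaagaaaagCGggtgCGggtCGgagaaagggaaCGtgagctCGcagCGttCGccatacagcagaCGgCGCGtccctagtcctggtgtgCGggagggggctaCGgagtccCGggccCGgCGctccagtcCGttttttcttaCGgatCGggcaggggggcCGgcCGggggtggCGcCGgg
The Wif1 promoter held 21 CGs and 62.8% G or C, that of Sfrp5 13 and 59.6%, and that of Rspo1 22 and 66.8%. The median over 32851 promoters of the same length was 6 CGs and 52.4%. A promoter was found for 6 of the 10 members, those of Wif1, Sfrp2, Sfrp5, Frzb, Dkk2 and Rspo1. On either strand, the letters TATAAA stood in the windows of Wif1 and Dkk2 and in 12.4% of all promoters. The AP-1 letters TGANTCA, in 6.75% of all promoters, and the TCF/LEF letters ATCAAAG, in 3.21%, stood in 0 of the 6, which says only that these letters are not in these windows.

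Each pooled library held 11435463 to 22617054 counts on genes, and each single-nerve library 9240883 to 22426128. Levels are in CPM, the usual scaling of counts to library size, with edgeR's TMM factors, and 3 counts, taken as the limit that a count of 0 allows, were worth between 0.135 and 0.646 CPM. The 7 Schwann markers were all detected in every pooled library, and the SC transcription factor Sox10 stood at 7.457 to 422.2 CPM over both experiments. In iSCs Sox10 was at 219.9 to 422.2 CPM in the pools and 22.76 to 119.3 CPM in single nerves. The intact libraries thus differed between the experiments, and the part of this in their unlike fold changes over iSCs was not tested. Markers of other cells were present too: the summed level of 10 fibroblast markers was 9434 to 44549 CPM in pooled iSCs, 27989 to 40719 in dSCs and 14751 to 27431 in bSCs. Fewer cells of a type and less RNA per cell cannot be told apart in such bulk libraries. The dSC and bSC libraries of day 4 replicate 1, which come from 1 animal, were nearly alike (chi-square per degree of freedom 3.96, against at least 47.94 for any other pair of libraries). Over 7475 genes without the lists used here, 5 single-nerve libraries correlated more with libraries of the other injured region than with their own: bSCs of day 4 replicates 0 and 1, day 6 replicate 1 and day 8 replicate 2, and dSCs of day 10 replicate 0. Together these are 6 doubted libraries. The value without them is given where leaving them or the 5 out ended a call named here. It is also given where a member's printed value moved by more than 1 SE. Since the 5 were picked by likeness to the other region, a wider gap between dSCs and bSCs without them is in part built in. The cut was close: own minus other mean r was −0.0167 in day 4 bSC replicate 0, counted, and 0.0044 in day 8 bSC replicate 0, not counted.

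Wif1 marked dSCs at day 6. In pooled dSCs its level was 501.5, 656.6, 522.2 and 668.9 CPM in pools 1, 2, 3 and 5. In pooled iSCs it was 0, 0, 0.303 and 0.5646 CPM in pools 1, 2, 4 and 5, a total of 11 counts, and in bSCs it was 64.53, 0, 0.3437 and 7.136 CPM. The dSC libraries lay close together and overlapped neither other region, while the bSC libraries ran from no count to a level well above that of any iSC library. The ratio of the summed dSC counts to the summed iSC counts, each scaled to library size, was 3113, with an exact Poisson 95% interval from 1740 to 6236. Intervals and limits of this kind cover counting error only, since reads amplified by PCR without molecular identifiers are not independent molecules. The fitted log2 fold change was 11.47 ± 1.95 (SE) for dSCs over iSCs and −5.02 ± 1.41 for bSCs over dSCs, with n = 4 per region, and fitted values against groups at or near 0 depend on edgeR's prior count. For bSCs over iSCs it was 6.45 ± 1.69. Without the pool 1 bSC library the values for bSCs were 3.65 over iSCs and −7.85 over dSCs.

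**Figure D1:**
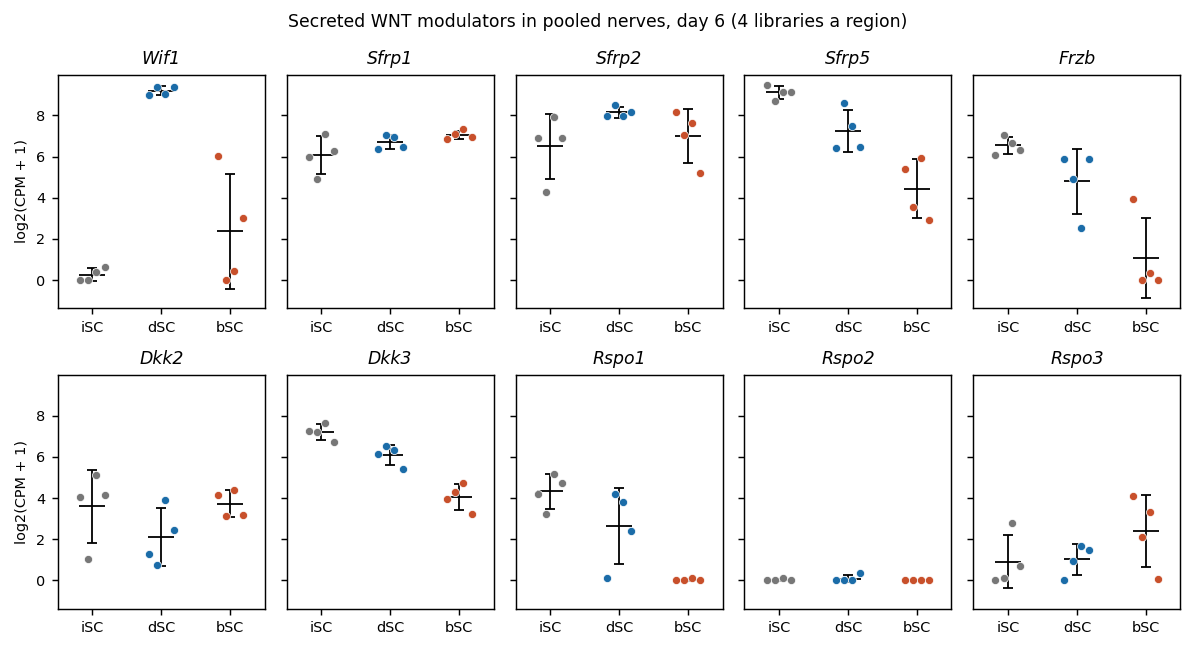
Level of each of the 10 secreted WNT modulators in the pooled nerves at day 6, as log2(CPM + 1) per library in iSCs, dSCs and bSCs. Points are libraries (4 a region), the long bar is their mean and the whiskers are 1 SD. Wif1 was at 501.5 CPM or more in each dSC library, and Sfrp5, Frzb, Dkk3 and Rspo1 had their highest means in iSCs and their lowest in bSCs.

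Over the time course the Wif1 level of dSCs grew from day to day up to day 8. It was 4.089, 0.8135 and 1.229 CPM at day 1, 41.77, 16.23 and 15.39 at day 2, and 109.4, 80.07 and 318.1 at day 4. It was 276.4, 340.2 and 698.5 CPM at day 6, 541.3, 883.2 and 1628 at day 8, and 1.99, 622.2 and 616.4 at day 10. Day 1 libraries overlapped the intact nerves, where the 5 levels were 0, 16.71, 0.1188, 2.394 and 0.4948 CPM, and from day 4 each dSC library but the first of day 10 was above all of these. The single low library of day 10 (replicate 0) is the dSC library whose profile was closer to bSCs.

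Single-nerve bSCs were split. Their Wif1 level was 165.4, 76.46 and 0.08884 CPM at day 4, 0.08558, 30.68 and 0.06952 at day 6, 0, 0 and 612.7 at day 8, and 0, 1.008 and 2.069 at day 10. Every one of the 8 bSC libraries closer to other bSCs was at 2.069 CPM or less, and the 4 bSC libraries closer to dSCs stood at 30.68 to 612.7 CPM. The 11 dSC libraries closer to other dSCs stood at 80.07 to 1628 CPM. The level of Wif1 thus followed the profile of the other genes in libraries whose label and profile differed. Among the 4 bSC libraries closer to dSCs, day 4 replicate 1 was nearly identical to the dSC library of that animal. Over days 4 to 10 the fitted log2 fold change was 6.90 ± 1.94 for dSCs over iSCs and −4.32 ± 1.14 for bSCs over dSCs. Without the 5 libraries closer to the other region these were 7.09 ± 1.16 and −12.27 ± 1.38. The bSC value over iSCs was 2.58 ± 1.54 with all libraries and −5.18 ± 1.25 without the 5, so its direction rests on them. The day 8 bSC library (replicate 2) alone turned that sign, with a value of −0.98 without it, and −7.95 for bSCs over dSCs. Without the day 6 bSC library (replicate 1) these were 0.88 and −6.09, and without the intact nerve at 16.71 CPM the values over iSCs were 9.11 for dSCs and 4.77 for bSCs. Without the 2 near-identical day 4 libraries the 3 values were 7.06 for dSCs over iSCs, 2.64 for bSCs over iSCs and −4.42 for bSCs over dSCs.

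**Figure D2:**
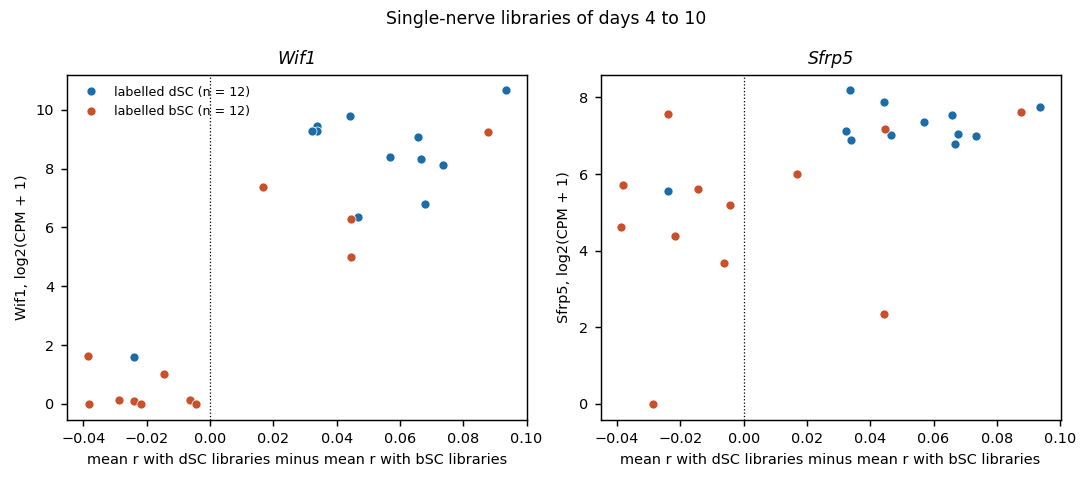
Level of Wif1 and of Sfrp5, as log2(CPM + 1), against how much more each single-nerve library of days 4 to 10 correlated with dSC than with bSC libraries of other animals over 7475 other genes (mean r with dSC libraries minus mean r with bSC libraries). Points are libraries, 12 labelled dSC and 12 labelled bSC. All libraries left of 0 were at 2.069 CPM of Wif1 or less and all to its right at 30.68 CPM or more, while the Sfrp5 levels of both sides overlapped.

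Nerves with both regions sequenced and no conflict in their labels gave 10 pairs within animals. The animal of day 10 replicate 0, source of the low dSC library, had conflicting labels and was left out. Its bridge and distal levels were 0 and 1.99 CPM for Wif1, 51.59 and 45.97 for Sfrp5, and 5.966 and 0 for Frzb. Wif1 was lower in the bridge than in the distal stump of the same animal in 9 of 10 pairs, with a median log2 difference of −7.825 (range −9.788 to 0.592, on log2(CPM + 1)). The pair with the higher bridge level was that of day 4 replicate 0, at 165.4 against 109.4 CPM. Without the near-identical pair of day 4, it was lower in 8 of 9. In the pools, Wif1 had an r of 0.61 with the summed fibroblast markers, and of 0.09 in the single nerves. The 7 macrophage markers summed to 67.15 to 1340 CPM in pooled iSCs, 1392 to 2457 in dSCs and 365.1 to 1189 in bSCs. Their correlation with Wif1 over libraries was 0.68 in the pooled nerves (n = 12) and 0.42 in the single nerves (n = 35), a description over libraries that share region and depth, and the part of these cells in the result was not tested. In the single-nerve libraries of days 4 to 10 the macrophage sum was 404.6 to 2571 CPM in dSCs and 309.5 to 2668 in bSCs.

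Of the SFRP family genes among the members, Sfrp5 had the highest mean level in intact nerve. Sfrp4, an SFRP gene outside the members, was at 457, 123.6, 2181 and 1133 CPM in pooled iSCs. The level of Sfrp5 was 707.1, 420.7, 559.4 and 564.6 CPM in pooled iSCs, a mean of 563 ± 117 (SD, n = 4). Pooled dSCs had 84.84, 386.5, 177.6 and 87.5 CPM (184.1 ± 141.6), and pooled bSCs had 41.26, 10.61, 59.47 and 6.529 CPM (29.47 ± 25.3). The 3 regions did not overlap, and they stood in the order intact, distal, bridge. The log2 fold change was −1.61 ± 0.64 for dSCs over iSCs (−2.27 without dSC pool 2), −4.26 ± 0.72 for bSCs over iSCs and −2.64 ± 0.67 for bSCs over dSCs.

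In single nerves the Sfrp5 level of iSCs was 666.2, 137.8, 1174, 672.1 and 397.9 CPM. At day 1 dSCs were already at 234.3, 120.1 and 324 CPM, and on day 4 they were at 131.7, 129.1 and 109.5 CPM. All but the lowest of the intact nerves were above all 18 dSC libraries. Over days 4 to 10 the 12 dSC libraries ran from 45.97 through a median of 134.5 to 290.8 CPM, and the 12 bSC libraries from 0 through 41.93 to 197.5 CPM, so these regions overlapped. The bridge level was lower in 8 of 10 animals, with a median log2 difference of −2.421. The log2 fold change of bSCs over dSCs was −1.27 ± 0.58, and −2.30 ± 0.69 without the 5 libraries closer to the other region. Levels of bSCs over iSCs differed by −3.21 ± 0.70 with all libraries and −4.10 ± 0.85 without the 5. Without the day 6 bSC library at 187.4 CPM (replicate 3) the values were −2.53 over dSCs and −4.43 over iSCs.

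Frzb, first known as a WNT-binding protein of cartilage, followed the same order in pooled nerves. Its level was 66.6, 132.8, 101.3 and 80.09 CPM in iSCs, 57.68, 28.98, 4.875 and 58.33 CPM in dSCs, and 14.53, 0, 0.2578 and 0 CPM in bSCs. No dSC library reached the lowest iSC library, and 2 of the 4 bSC libraries had no count. The log2 fold change was −1.35 ± 1.32 for dSCs over iSCs and −3.32 ± 1.43 for bSCs over dSCs. For bSCs over iSCs it was −4.66 ± 1.52. Without the pool 1 bSC library, which held nearly all of the bSC counts, the values for bSCs were −10.24 over iSCs and −8.92 over dSCs.

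Single nerves differed from the pools in Frzb. Its level in the 5 intact nerves was 5.429, 0, 0, 13.28 and 18.14 CPM, below each pooled iSC library. In dSCs it was 25.31, 9.097 and 2.592 CPM at day 4, 64.24, 63.97 and 4.495 at day 6, 313.7, 132 and 59 at day 8, and 0, 42.1 and 235.3 at day 10. The day 8 libraries were all above the intact nerves. The fold change of dSCs over iSCs was therefore of opposite sign in single nerves, at 2.87 ± 1.70 on the log2 scale. Bridge levels were 14.29, 7.699 and 6.663 CPM at day 4, 0.08558, 13.57 and 0.06952 at day 6, 0, 0 and 239.8 at day 8, and 5.966, 0 and 32.02 at day 10. The high day 8 library is the one closest to dSCs in profile. Within animals Frzb was lower in the bridge in 8 of 10, with a median log2 difference of −2.259. The value of bSCs over dSCs was −1.82 ± 1.14, and −6.84 ± 1.82 without the 5 libraries closer to the other region. For bSCs over iSCs it was 1.05 ± 1.52 with all libraries and −3.78 ± 1.56 without the 5. Without that day 8 library alone they were −5.13 and −2.19, and without the day 6 bSC library (replicate 1) the value over dSCs was −3.31.

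Sfrp1 and Sfrp2 were detected in every pooled library of all 3 regions. Sfrp1 stood at 62.07, 28.94, 137.5 and 75.74 CPM in pooled iSCs, 80.71, 131.5, 121.6 and 86.16 in dSCs, and 114.5, 133.6, 159.7 and 123.5 in bSCs. Its bSC levels lay in the upper part of the range, and they overlapped those of both other regions. Its log2 fold change was 0.47 ± 0.38 for dSCs over iSCs, 0.80 ± 0.38 for bSCs over iSCs and 0.34 ± 0.37 for bSCs over dSCs. Without the pool 4 iSC library the values over iSCs were 0.91 for dSCs and 1.23 for bSCs. With a replicate block on pool they were 0.85 and 1.18. In single nerves iSCs ran from 62.05 to 181.1 CPM, dSCs of days 4 to 10 from 23.85 through 84.69 to 167.2 CPM, and bSCs from 26.24 through 102.7 to 190.3 CPM. The sign over iSCs was the other way there, with −0.46 ± 0.42 for dSCs and −0.11 ± 0.42 for bSCs.

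Sfrp2 was at 117, 18.31, 240.2 and 118.6 CPM in pooled iSCs, 248.5, 367.1, 246.6 and 288.3 in dSCs, and 289.6, 130.6, 196.2 and 35.49 in bSCs. The dSC libraries were all above the iSC libraries, and bSCs overlapped both. The log2 fold change of dSCs over iSCs was 1.22 ± 0.64 in pooled and 0.64 ± 0.71 in single nerves, each under 2 SE. The spread between single nerves was wide, with bSCs of days 4 to 10 running from 0.8465 through 341.2 to 1106 CPM and dSCs from 26.28 through 230.1 to 704 CPM. Within animals Sfrp2 was higher in the bridge in 6 of 10. Over the pools Sfrp2 had an r of 0.70 with the summed macrophage markers and 0.63 with the fibroblast markers, and over the single nerves 0.23 and 0.17, and the part of those cells in its level was not tested.

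**Figure D3:**
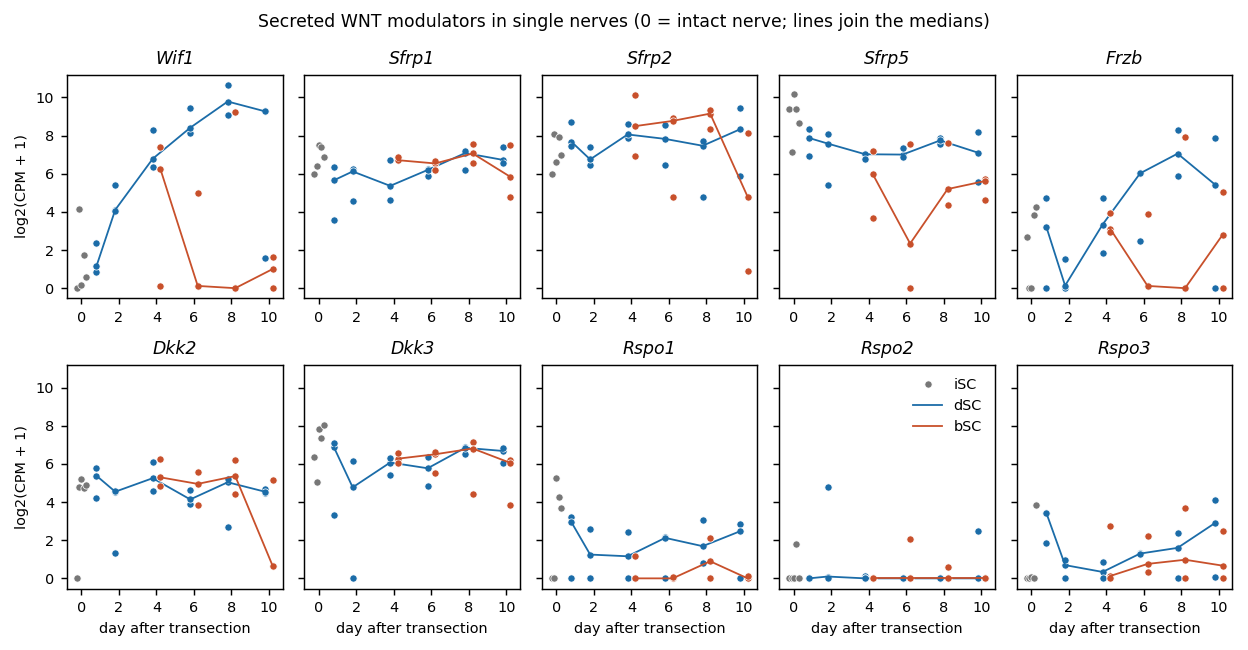
Level of each member in single nerves, as log2(CPM + 1), by day after transection. Points are libraries and lines join the medians of dSCs (days 1 to 10) and bSCs (days 4 to 10), with the 5 intact nerves drawn at day 0. Wif1 in dSCs went from 0.8135 to 4.089 CPM at day 1 to 541.3 to 1628 CPM at day 8, while Sfrp5 was highest in intact nerves.

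Of the DKK proteins, Dkk3 followed the order of Sfrp5 in the pools. Its level was 154.2, 148.2, 195.9 and 103.6 CPM in iSCs, 70.08, 92.67, 78.36 and 41.85 CPM in dSCs, and 14.35, 18.51, 25.18 and 8.488 CPM in bSCs. No library of any region overlapped another region. The log2 fold change was −1.09 ± 0.35 for dSCs over iSCs, −3.18 ± 0.38 for bSCs over iSCs and −2.09 ± 0.37 for bSCs over dSCs, the smallest standard errors among the members whose level was lower in bSCs. In single nerves the difference between the injured regions was not seen. Over days 4 to 10 dSCs ran from 27.81 through 79.2 to 115.6 CPM and bSCs from 13.28 through 75.02 to 141.7 CPM, and the log2 fold change of bSCs over dSCs was −0.02 ± 0.49. At day 6, the day of the pools, the single bSC levels of Dkk3 were 45.44, 89.98 and 97.89 CPM, each above the 4 pooled bSC libraries. Within animals Dkk3 was higher in the bridge in 6 of 10 and lower in 4.

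Dkk2 was low and variable. It stood at 15.67, 1.068, 33.4 and 16.86 CPM in pooled iSCs, 1.454, 0.6725, 14.18 and 4.401 in dSCs, and 17, 7.827, 20.11 and 8.115 in bSCs. All 3 regions overlapped. Its log2 fold change was −1.69 ± 1.07 for dSCs over iSCs and 1.36 ± 1.06 for bSCs over dSCs, and without dSC pool 3 these were −2.94 and 2.60. In single nerves of days 4 to 10 it ran from 5.441 through 23.31 to 68.13 CPM in dSCs and from 0.5593 through 32.31 to 76.49 CPM in bSCs, and the value for dSCs over iSCs was 0.19 ± 0.79.

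Among the R-spondins, only Rspo1 had at least 8 CPM in each pooled iSC library. Its level there was 17.16, 8.342, 35.22 and 25.41 CPM (21.53 ± 11.48), and in dSCs it was 0.0765, 17.49, 13 and 4.252 CPM (8.703 ± 7.954). In pooled bSCs it was 0, 0, 0.08594 and 0 CPM, which is 1 count in all 4 libraries. The iSC and dSC libraries overlapped, while 3 of 4 dSC libraries and every iSC library were above all bSC libraries by a wide margin. The ratio of summed iSC to summed bSC counts, each scaled to library size, was 1384 with an exact Poisson 95% interval from 248.3 to 54654. For dSCs over bSCs it was 621.5, with an interval from 111.5 to 24546. In single nerves, Rspo1 was at 0, 0, 38.02, 18.58 and 11.82 CPM in iSCs. It ran from 0 to 8.285 CPM over the 18 dSC libraries and from 0 to 3.272 CPM over the 12 bSC libraries. The median over days 4 to 10 was 2.79 CPM in dSCs and 0 in bSCs, and within animals the bridge was lower in 7 of 10 and higher in 1. The 2 intact nerves without a count of Rspo1 were replicates 0 and 1. Their TMM-scaled library sizes were 6446845 and 4846687, against 16834142 to 18189100 in the other intact nerves. These are sizes after scaling and not sequencing depth. Replicate 0 held 11591787 counts on genes, and no single-nerve library held fewer than 9240883. Rspo1 was thus not detected in each intact library, and the part of library size or quality in this was not tested.

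Rspo3 and Rspo2 were low in most libraries and clearly detected in a few. Rspo3 was at 0, 0.1017, 5.908 and 0.6453 CPM in pooled iSCs, 0, 0.9415, 2.142 and 1.79 in dSCs, and 16.28, 3.292, 9.023 and 0.04664 in bSCs. Its 2 highest pooled levels were in bSCs, and the regions overlapped, with a log2 fold change of 2.10 ± 1.89 for bSCs over iSCs that was 4.82 without the pool 4 iSC library. In single nerves Rspo3 ran from 0 through 1.454 to 16.12 CPM in dSCs and from 0 through 0.6399 to 12.07 CPM in bSCs of days 4 to 10, and at day 1 dSCs held 9.791, 9.898 and 2.552 CPM. Rspo2 had at most 0.2984 CPM in any pooled library and was the only member left out of the pooled fit by the filter on low counts. In single nerves its highest level was 26.27 CPM, in dSCs of day 2 (replicate 0), and no fold change is given for it.

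The pooled fit across 13751 genes held 9 of the 10 members, and their calls at an adjusted p under 0.05 are listed without weight because the members were chosen on these contrasts. For dSCs over iSCs Wif1 was called higher, where 2.63% of all genes tested were called higher and 2.69% lower. For bSCs over iSCs Wif1 was called higher, and Sfrp5, Dkk3 and Rspo1 lower, where the shares of all genes were 7.24% and 7.46%. For bSCs over dSCs Sfrp5, Dkk3 and Rspo1 were called lower, where 2.31% of all genes were higher and 3.11% lower. The median log2 fold change of the 9 was −1.09 for dSCs over iSCs, −0.34 for bSCs over iSCs and −2.09 for bSCs over dSCs, beside −0.02, −0.16 and −0.07 over all genes. With a replicate block on pool, the Wif1 value of bSCs over iSCs (5.53 ± 2.10) and the values of Sfrp5 (−2.89 ± 0.74) and Rspo1 (−8.20 ± 1.87) for bSCs over dSCs no longer passed. That Wif1 call also ended without iSC pool 1, 2 or 4 or bSC pool 1 (edgeR adjusted p from 0.05776 to 0.07369). It stayed without iSC pool 5 or bSC pool 2, 3 or 5. The Rspo1 call for bSCs over dSCs also ended without the pool 5 injured libraries (edgeR adjusted p = 0.07449).

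The study's filter of at least 100 counts in 85% of libraries left 7171 genes in the single nerves and 5 of the members (Sfrp1, Sfrp2, Sfrp5, Dkk2 and Dkk3). Sfrp5 was called lower for bSCs over iSCs, where 3.63% of all genes were called higher and 6.46% lower. The shares of all genes were 3.19% and 6.41% for dSCs over iSCs, and 0% and 0.112% for bSCs over dSCs. All single-nerve fold changes of members given here come from a fit with edgeR's own filter, which kept 15519 genes and all 10 members. In that fit, for which no shares of all genes are given, Wif1 was called higher for dSCs over iSCs (edgeR adjusted p = 0.03322). Leaving out intact replicate 0, 3, 4 or 5 ended this call (edgeR adjusted p from 0.06027 to 0.08224), and leaving out replicate 1 did not (0.02695). It also ended without the dSC library of day 4 replicate 2, day 8 replicate 2, or day 10 replicate 1 or 3 (0.05108 to 0.0544). Rspo1 was called lower in the same fit for bSCs over iSCs (edgeR adjusted p = 0.01275, and 0.1012 without the 6 doubted libraries). These calls are listed without weight as well.

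The make-up of the group is compared per kilobase of exon, since longer genes collect more counts. In pooled iSCs the highest mean level was that of Sfrp5 at 296.3 CPM per kb, followed by Sfrp2 at 57.36 and Dkk3 at 44.83. In dSCs it was that of Wif1 at 242 CPM per kb, followed by Sfrp2 at 133.6 and Sfrp5 at 96.89. In bSCs it was that of Sfrp2 at 75.69 CPM per kb, followed by Sfrp1 at 30.38 and Sfrp5 at 15.51. The leading member was Sfrp5 in 4 of 4 iSC libraries, Wif1 in 4 of 4 dSC libraries, and Sfrp2 in 3 and Sfrp1 in 1 of the bSC libraries. Sfrp5 made up 52.9% to 71.5% of the members' summed level per kb in pooled iSCs, and Wif1 37.5% to 54% in pooled dSCs. The 3 R-spondins together made up 1.33% to 3.71% in iSCs, 0.0093% to 1.56% in dSCs and 0.0349% to 2.97% in bSCs. In single dSCs the median share of Wif1 was 0.188% at day 1, 3.46% at day 2, 16.8% at day 4, 34.1% at day 6, 61.8% at day 8 and 40.1% at day 10. The intact nerves were led by Sfrp5 in 4 of 5 libraries and by Sfrp2 in 1.

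**Figure D4:**
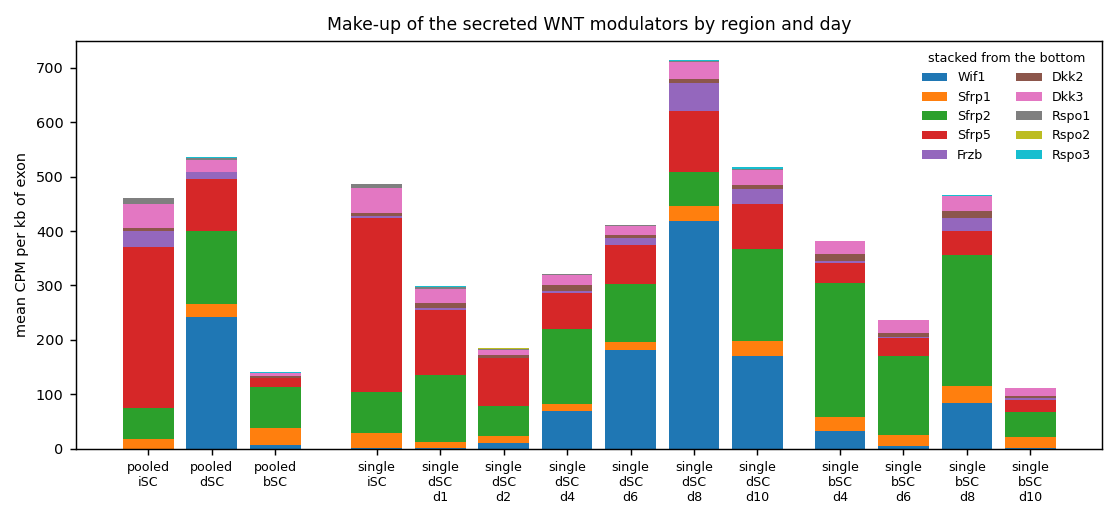
Mean level per kilobase of exon (CPM per kb) of the 10 members, stacked, in each group of libraries (4 libraries a pooled group, 5 single iSC libraries, 3 for every other group). Sfrp5 was the largest portion in pooled iSCs at 296.3 CPM per kb and Wif1 in pooled dSCs at 242 CPM per kb.

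The members with the order intact, distal, bridge moved alike over the 12 pooled libraries. Pearson's r of log2(CPM + 1) was 0.944 between Sfrp5 and Dkk3, 0.886 between Sfrp5 and Rspo1 and 0.856 between Dkk3 and Rspo1, and over the 35 single-nerve libraries it was 0.306, 0.597 and 0.504. These libraries share regions, so the correlations are a description only. Wif1 and Frzb had an r of 0.095 in the pools and 0.662 in the single nerves. Perineurial markers moved with the same group of members. The summed level of 7 perineurial markers was 865.3 to 1132 CPM in pooled iSCs, 213.5 to 757.3 in dSCs and 189.8 to 425.6 in bSCs. Its r over the pools was 0.90 with Sfrp5, 0.85 with Dkk3, 0.79 with Rspo1 and 0.78 with Frzb, and over the single nerves 0.64, 0.33, 0.45 and 0.06. Among these markers Ntn4 was at 0 in 4 of 4 pooled bSC libraries, Msln in 3, and Krt19 and Lypd2 in 2 each, while none of the 7 was at 0 in pooled iSCs. The part of these cells in the result was not tested. In single nerves the perineurial sum was 994.6 to 3046 CPM in iSCs, 180.2 to 978.8 in dSCs of days 4 to 10 and 124.9 to 659.2 in bSCs.

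The 5 genes most like Wif1 over the pools, among 13694 genes, were Syt6, which encodes a synaptotagmin (r = 0.9633), the glycosyltransferase gene Gcnt4 (0.9577), Fam227b (0.9345), the hedgehog ligand gene Shh (0.9316) and Cd22, a sialic acid-binding lectin gene (0.9290). Over the 35 single nerves r was 0.7615 for Syt6, 0.7635 for Gcnt4, 0.7374 for Shh and 0.6911 for Cd22, and it was 0.3986 for Fam227b. For Rspo1 the 5 were the ephrin gene Efnb3 (0.9782), the neurotrophic factor receptor gene Ret (0.9762), Wisp2 (0.9748), the adenosine receptor gene Adora1 (0.9596) and the transporter gene Slc6a12 (0.9493). In the single nerves their r was between 0.2609 and 0.5386, lower than for 4 of the 5 genes most like Wif1.

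The rest of the pathway was tested from a list of 85 other WNT pathway genes. Of these, 59 passed the filter in the pools and 22 in the single nerves. This list too was chosen with earlier results of these data known, so its adjusted p-values and shares of calls are a description. For dSCs over iSCs 6 of 59 (10.2%) passed the test, 2 higher and 4 lower, beside 5.32% of all genes, with a median log2 fold change of −0.33 beside −0.02 over all genes. For bSCs over iSCs 9 (15.3%) passed, 4 higher and 5 lower, beside 14.7% of all genes, with a median of −0.68 beside −0.16. For bSCs over dSCs 1 (1.69%) passed, which was lower, beside 5.43% of all genes, with a median of −0.09 beside −0.07. With a replicate block on pool the counts were 2, 5 and 1, and Sostdc1 was called for bSCs over both iSCs and dSCs with the block alone.

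Of 19 WNT ligand genes 7 were tested in the pools, and none was among the genes that passed. Wnt6, named after its value was seen, was the only ligand gene with an unadjusted p under 0.05 there. It was at 33.47 to 68.72 CPM in pooled iSCs, 0 to 15.66 in dSCs and 4.305 to 11.09 in bSCs, and its adjusted p from edgeR for dSCs over iSCs was 0.2397. In single nerves Wnt6 ran from 10.61 to 202 CPM in iSCs and from 0 through 4.957 to 24.05 in dSCs of days 4 to 10, and with edgeR's own filter it fell by a log2 fold change of −3.69 ± 0.90 (edgeR adjusted p = 0.01491). That filter kept 14 ligand genes, of which 2 fell for dSCs (Wnt6 and Wnt9b) and 2 for bSCs (Wnt2b and Wnt9b) over iSCs. No share of all genes is given for that fit, so these counts are a list and not a result about ligands. Without the 6 doubted libraries Wnt6 still passed for dSCs (edgeR adjusted p = 0.0273), while Wnt9b (edgeR adjusted p = 0.07229 for dSCs and 0.1734 for bSCs) and Wnt2b (0.1845) did not. Wnt9b was at 0 in 3 of the 5 intact nerves and in all pooled libraries, and Wnt2b was between 0 and 1.995 CPM in 4 of the 5 intact nerves.

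Ccnd1, the cyclin D1 gene that WNT and other growth signals raise, rose in both injured regions. Its level was 108.2, 101.2, 71.57 and 106.2 CPM in pooled iSCs, 1078, 1258, 765.8 and 581.3 in dSCs and 620.6, 818, 1152 and 1015 in bSCs. All injured libraries were above all intact ones. The log2 fold change was 3.25 ± 0.31 for dSCs (edgeR adjusted p = 0.0004376) and 3.22 ± 0.31 for bSCs (edgeR adjusted p = 6.194e-05) over iSCs. Single nerves gave smaller values of 1.19 ± 0.28 (edgeR adjusted p = 0.007261) and 0.97 ± 0.28 (edgeR adjusted p = 0.02271). Without the 6 doubted libraries the dSC value of Ccnd1 was 1.20 ± 0.25 (edgeR adjusted p = 0.005708), and the bSC value was 0.59 ± 0.26 and no longer passed (edgeR adjusted p = 0.1994). Nkd2, a feedback inhibitor that binds Dishevelled, rose as well, from 11.09 to 49.6 CPM in iSCs to 60.86 to 203.6 in dSCs and 110.3 to 464.7 in bSCs. Its log2 fold change was 2.41 ± 0.60 for dSCs (edgeR adjusted p = 0.03494, and 0.06458 with the replicate block) and 3.42 ± 0.62 for bSCs (edgeR adjusted p = 0.002871). In single nerves Nkd2 was at 0, 0, 15.33, 16.47 and 12.53 CPM in iSCs. The levels of 0 were in replicates 0 and 1, which had the smallest TMM-scaled sizes of the intact nerves (6446845 and 4846687, sizes after scaling and not sequencing depth). Over these iSCs Nkd2 rose by 3.36 ± 0.88 (edgeR adjusted p = 0.01417) in dSCs and 3.02 ± 0.86 (edgeR adjusted p = 0.02208) in bSCs on the log2 scale. Without the 6 doubted libraries Nkd2 was under the study's filter. With edgeR's own filter its values were then 3.51 ± 0.98 for dSCs (edgeR adjusted p = 0.05245, against 0.02206 with all libraries) and 2.68 ± 0.96 for bSCs (edgeR adjusted p = 0.1262, against 0.02151).

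Axin2, the feedback target most closely tied to β-catenin, went the other way in the pools. It was at 4.289, 6.104, 2.424 and 5.888 CPM in iSCs, 2.219, 1.076, 0.5909 and 3.655 in dSCs, and 0, 0, 0 and 0.1866 in bSCs. It fell in bSCs over iSCs (edgeR adjusted p = 0.02406, and 0.08088 with the replicate block), and the ratio of summed iSC to bSC counts, each scaled to library size, was 83.21, with an exact Poisson 95% interval from 32.5 to 305.4. In single nerves its median was 3.089 CPM in iSCs, 3.275 in dSCs and 0.5693 in bSCs of days 4 to 10, with a log2 fold change of −2.04 ± 1.15 for bSCs over iSCs that did not pass.

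Sostdc1, another secreted WNT and BMP antagonist, was among the genes that fell most in dSCs. It was at 782.1, 1333, 546.3 and 397.6 CPM in pooled iSCs, 7.344, 22.33, 117.4 and 12.23 in dSCs and 148.1, 157, 256.8 and 73.27 in bSCs. The value for dSCs over iSCs was −4.26 ± 0.82 in the pools (edgeR adjusted p = 0.009611) and −3.19 ± 0.88 in single nerves (edgeR adjusted p = 0.02097). With the replicate block Sostdc1 also passed in the pools for bSCs over iSCs (−2.86 ± 0.48, edgeR adjusted p = 0.01142, against 0.05843 without it) and was higher in bSCs than in dSCs (2.68 ± 0.47, edgeR adjusted p = 0.0386, against 0.1297). Sfrp4, the SFRP that was not among the 10 members, fell in bSCs, with a log2 fold change of −3.33 ± 0.88 in the pools (edgeR adjusted p = 0.02282, and 0.203 with the replicate block) and −1.74 ± 0.44 in single nerves (edgeR adjusted p = 0.009867, and 0.05202 without the 6 doubted libraries).

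Both genes for R-spondin receptors that passed the test fell. Lgr5, which encodes an LGR receptor, was at 16.86 to 79.46 CPM in iSCs and 0.9602 to 11.9 in dSCs, with a log2 fold change of −3.27 ± 0.87 (edgeR adjusted p = 0.04638, and 0.0641 with the replicate block). In single nerves, with edgeR's own filter, its value was −3.05 ± 0.79 (edgeR adjusted p = 0.02232). Znrf3, the ubiquitin ligase that removes Frizzled receptors, was at 59.77 to 96.19 CPM in iSCs, 16.34 to 38.12 in dSCs and 25.29 to 43.82 in bSCs. Its log2 fold change was −1.62 ± 0.35 for dSCs (edgeR adjusted p = 0.01851, and 0.1125 with the block) and −1.11 ± 0.35 for bSCs (edgeR adjusted p = 0.04681, and 0.1796 with the block). Of the 5 tested R-spondin and DKK receptor genes, 2 fell for dSCs and 1 for bSCs, and neither Znrf3 value passed in single nerves (−0.95 ± 0.55 and −1.17 ± 0.55).

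Among Frizzled receptors, Fzd3 fell, with a log2 fold change of −2.16 ± 0.46 for dSCs (edgeR adjusted p = 0.01756, and 0.1055 with the replicate block) and −2.05 ± 0.46 for bSCs (edgeR adjusted p = 0.009583, and 0.06248 with the block). In single nerves its values were 0.32 ± 0.62 and 0.30 ± 0.62, of opposite sign and not past the test. Fzd8 had 4 counts in all pooled bSC libraries, against 3.509 to 17.99 CPM in iSCs and 6.254 to 15.07 in dSCs. It fell in bSCs over iSCs (edgeR adjusted p = 0.01454) and over dSCs (edgeR adjusted p = 0.0283, and 0.05827 with the block), with a ratio of summed iSC to bSC counts, each scaled to library size, of 138.8 and an exact Poisson 95% interval from 54.21 to 509.4. In single nerves the Fzd8 value for bSCs over iSCs was −0.43 ± 1.22. Fzd8 and Axin2 had too few counts there for the study's filter, and their single-nerve values come from the fit with edgeR's own filter.

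Wls, which carries WNT ligands to the cell surface, rose in bSCs, from 74.63 to 95.81 CPM in iSCs to 187.9 to 371.2 CPM, by 1.63 ± 0.36 on the log2 scale (edgeR adjusted p = 0.008598). In single nerves the value was 0.67 ± 0.33. The ninth gene that passed for bSCs over iSCs was Ctnnb1, which encodes β-catenin, named after its value was seen (0.78 ± 0.25, edgeR adjusted p = 0.04874, and 0.05259 with the block). In single nerves Ctnnbip1, an inhibitor of β-catenin, was also named after its value was seen, and it fell in dSCs, with a log2 fold change of −1.01 ± 0.28 (edgeR adjusted p = 0.02188, and 0.05587 without the 6 doubted libraries). For bSCs over dSCs in single nerves, edgeR called 0 of the 22 pathway genes, with 6 at an unadjusted p under 0.05, and DESeq2 also called 0.

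**Figure D5:**
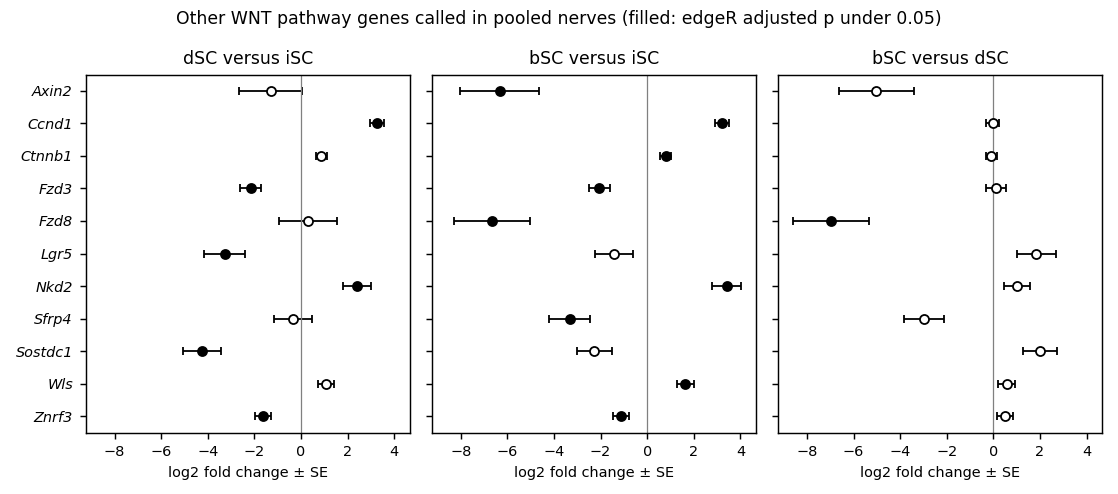
Log2 fold change with its SE in the pooled nerves for each of the 11 other WNT pathway genes that passed the test in at least 1 comparison (4 libraries a region). Filled points passed at an edgeR adjusted p under 0.05. Ccnd1 and Nkd2 rose in both injured regions over iSCs, and Fzd8 fell in bSCs over both iSCs and dSCs.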

How the data were processed

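The authors made Smart-seq2 libraries from sorted SCs, aligned the reads to mm9 with TopHat2 2.0.11 and deposited raw HTSeq counts per gene. The gene annotation and the strand setting are not given in the sources used here. Lanes of a library were summed, and rows for reads on no gene (52.53% to 60.55% of reads, leaving aside multiply aligned ones) and 92 ERCC spike-ins were set aside. Libraries were grouped by their labels. The study's text calls the pooled libraries of a region biological replicates, and each single-nerve library held 1 nerve.

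The members and all gene and marker lists were chosen with earlier results of these data known. Counts were tested with edgeR 4.0.16 in R 4.3.3 (TMM, quasi-likelihood, Benjamini-Hochberg, adjusted p under 0.05), in 1 fit per experiment with all groups, where single-nerve dSCs and bSCs are the equal-weight average of days 4 to 10. Low counts were removed with filterByExpr in the pools, and in single nerves by the study's rule of 100 counts in 85% of libraries. The paper reports 4 intact single nerves after its filters, and all 5 were used here. CPM use TMM-scaled library sizes. Pathway genes are named where they passed in a pooled comparison, up to the 8 with the smallest adjusted p, and the 5 genes most like Wif1 and Rspo1 by r. The fits were tested on simulated counts. Exon lengths and positions are from Gencode for NCBIM37.

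Alternatives were DESeq2 1.42.0 and its size factors, other filters, a prior count of 0.5 in place of 2, leaving out each library, only the groups compared, and the replicate block. Leaving out the near-identical libraries, the 5 closer to the other region, or all 6, with either filter, was chosen after seeing the data. Pool and animal numbers in the labels pair libraries of the same mice. Deviations of same-numbered libraries from their group means correlated at −0.014 on average in the pools (10 pairs, −0.1303 to 0.0813) and at 0.1708 in single nerves (9 pairs, −0.0656 to 0.6833). The animal with conflicting labels (day 10 replicate 0) was left out of the pairs. Rat culture libraries were not analysed here.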

Additional observations from a re-analysis of the deposited data

Results flagged for a closer look

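Among 39 groups of 4 or 5 libraries, 9 held a library that stood apart from the others by Dixon's test at the 95% level. For normal values chance flags about 1 of 20 groups. That rate does not apply here, since a single library with any count is flagged where all others are at 0. Most of the 9 groups were at or near 0 otherwise. In pooled bSCs, pool 1 stood apart for Wif1 at 64.53 CPM, with the others between 0 and 7.136, and for Frzb at 14.53 CPM, with the others between 0 and 0.2578. Pool 3 stood apart for Rspo1 at 0.08594 CPM, which is 1 count, with the others at 0. In pooled iSCs, pool 4 stood apart for Rspo3 at 5.908 CPM, with the others between 0 and 0.6453, and for Rspo2 at 0.07574 CPM, with the others at 0. In pooled dSCs, pool 5 stood apart for Rspo2 at 0.2984 CPM. Of the single intact nerves, replicate 1 stood apart for Wif1 at 16.71 CPM, with the others between 0 and 2.394, replicate 4 for Rspo2 at 2.451 CPM, with the others at 0, and replicate 5 for Rspo3 at 13.52 CPM, with the others between 0 and 0.0594. The cause was not tested.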

How the results depend on the processing

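Of 1087 alternative values for the members' 57 differences, 1025 stayed within 1 SE of the value given, 62 did not and 37 had the other sign. For the other pathway genes no call reversed, and the cause of each change below was not tested unless fewer libraries or genes were used. In the pools the counts of 6 (dSCs over iSCs), 9 (bSCs over iSCs) and 1 (bSCs over dSCs) became 2, 5 and 1 with the replicate block, which kept Ccnd1 and Sostdc1 in the first and Ccnd1, Fzd8, Nkd2 and Wls in the second. It added Sostdc1 to the second, and in the third it lost Fzd8 and added Sostdc1. For bSCs over dSCs DESeq2 called 7, and 0 were called without the pool 5 injured libraries or with only the groups compared. Leaving out 1 library gave 2 to 6 (2 without iSC pool 1 or 2, 3 without dSC pool 5), 6 to 9 and 0 to 3 (3 without bSC pool 1, 2 without bSC pool 3 or dSC pool 2, 0 without bSC pool 2 or 5 or dSC pool 1 or 5). In single nerves 4 of 22 pathway genes (18.2%) were called for dSCs over iSCs, beside 9.61% of all genes. For bSCs over iSCs it was 3 of 22 (13.6%), beside 10.1% of all genes. These counts of 4 and 3 became 9 and 7 with no filter on low counts, where more genes were tested. Shares of all genes are not given for this and the other alternatives. With filterByExpr 5 were called for bSCs over iSCs. Without the 5 libraries closer to the other region that count was 1, and without all 6 doubted libraries the counts were 2 and 0. Leaving out 1 library gave 2 to 4 (2 without iSC replicate 0), 2 to 3 and, for bSCs over dSCs, 0 to 1 (1 without day 10 bSC replicate 2), where the replicate block over 10 animals called 0. Of the 14 pooled alternatives, all kept the calls of Ccnd1 in both comparisons, Sostdc1 in dSCs, and Nkd2 and Wls in bSCs, while Lgr5 in dSCs and Znrf3 in bSCs were each lost in 10 and Ctnnb1 in 11. The planned rat comparison was not run. Depth limits statements on Rspo2, Rspo3 and Rspo1, which had 3 counts or fewer in many libraries.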
